A study of Homo sapiens with 5 samples.

Results

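The imprinted genes of 11p15 examined here are H19, IGF2, KCNQ1, KCNQ1OT1, CDKN1C and PHLDA2, 6 neighbours on the short arm of human chromosome 11. DNA methylation was measured by reduced representation bisulfite sequencing (RRBS) in windows of 1000 bases, and a window of chromosome 11 was taken when the deposited table names it after a member or when it overlaps the gene or the 5000 bases on either side of it. This gave 258 windows of 288391 in all, 0.0895% of the table. H19 had 42 windows, IGF2 49, KCNQ1 149, CDKN1C 11 and PHLDA2 7. KCNQ1OT1 had 59, and all 59 are also windows of KCNQ1, because KCNQ1OT1 lies inside that gene on the opposite strand.

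The cells were the human induced pluripotent stem cell (iPSC) line HPS0063 (201B7), an established line that the labels call wild type, grown without feeder cells. The control cells received 0.1% DMSO for 48 h. The others received, also for 48 h, etoposide at 1 nM, propyl gallate at 1 µM, theophylline at 1 µM or 5-aza-dc at 10 nM. Etoposide is a topoisomerase II inhibitor, propyl gallate an antioxidant food additive, theophylline a methylxanthine bronchodilator and 5-aza-dc (5-aza-2′-deoxycytidine) an inhibitor of DNA methyltransferases. Each condition was 1 library without a replicate, so an effect of a chemical and a difference between cultures or libraries cannot be told apart.

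Most genes are read from both parental copies, whereas an imprinted gene is read from the copy of a given parent, marked by DNA methylation laid down in the germ line. The 11p15 cluster has a pair of such marks. Upstream of H19, a noncoding RNA read from the maternal copy, lies a control region that is methylated on the paternal copy, where it leaves IGF2, a fetal growth factor, able to reach shared enhancers. At the start of KCNQ1OT1, a long noncoding RNA read from the paternal copy, the DNA is methylated on the maternal copy, and the RNA keeps neighbours such as CDKN1C and PHLDA2 silent on its own chromosome. Altered methylation of these marks is known from the overgrowth disorder Beckwith-Wiedemann syndrome and the growth disorder Silver-Russell syndrome, and H19 and IGF2 are among the imprinted genes often examined in cultured pluripotent cells.

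In RRBS, DNA fragments rich in CpG sites are treated with bisulfite, which changes unmethylated cytosine and spares methylated cytosine, and each CpG cytosine read is then called methylated or not. The β-value of a window is the share of its CpG cytosine calls that were methylated, so a locus with 1 methylated and 1 unmethylated copy is read in the middle of the scale. Partial methylation of both copies gives the same value, and the windows do not separate the copies, so these cases cannot be told apart here. A β-value from 30% to 70% is called intermediate below. Calls were compared between libraries by a two-sided Fisher's exact test whose p-values were adjusted by the method of Benjamini and Hochberg over all 288391 windows, and a window is called at an adjusted p under 0.01. Such a call compares 2 libraries and not 2 conditions. Intervals of β-values are 95% Wilson intervals, and those of mean differences are 95% normal approximations from the binomial counting error. Intervals and calls cover counting error only. Several calls come from 1 read and from PCR copies of it, and where whole copies are methylated or not, the calls of a read go together. The table holds from 188847175 to 228919184 calls per library, and the 258 windows from 185187 to 226890. Of the 258 windows, 5 had fewer than 30 calls in some library.

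The starts of marker genes were set beside the label. Among 7 of 8 pluripotency genes with a measured window, SOX2, LIN28A, DNMT3B, SALL4 and DPPA4 lay between 0.258% and 1.81% in the 5 libraries and TDGF1 between 5.76% and 8.21%. POU5F1, a defining gene of pluripotent cells, went against this at the start of the gene model used, chr6:31180731, with 88.7% to 92.1%. Whether that start is the POU5F1 promoter used in these cells was not examined. NANOG had no measured window. Starts of the germ cell genes DDX4 and DPPA3 lay between 86.5% and 96.1%, those of the fibroblast genes COL1A1 and COL1A2 between 2.23% and 8.04%, and those of the neuroectoderm genes PAX6 and SOX1 between 1.20% and 2.35%. DNA methylation at these starts does not measure expression. The fibroblast and neuroectoderm starts were about as low as most pluripotency starts, so these values do not tell the cell types apart.

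The sequences below show where a measured window and an element of H19 do and do not meet, and come from RefSeq on build GRCh38.p14. H19 was the single member of 6 with a promoter sequence in the tables used. Its promoter, 250 bases before to 50 after the RefSeq start, is chr11:2001217-2001516 on the minus strand, and its 6 CpG sites, the positions that can be methylated, are in capitals.
H19 promoter: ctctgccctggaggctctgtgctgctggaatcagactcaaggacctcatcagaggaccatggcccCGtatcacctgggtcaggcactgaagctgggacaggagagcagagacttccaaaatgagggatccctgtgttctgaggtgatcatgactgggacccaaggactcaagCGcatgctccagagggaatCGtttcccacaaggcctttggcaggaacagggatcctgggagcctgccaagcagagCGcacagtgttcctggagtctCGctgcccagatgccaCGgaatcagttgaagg
It holds 0 copies of CCGG, the letters cut by MspI, the enzyme commonly used for RRBS, whereas 63.1% of 35116 promoters of the same length hold at least 1. CCGG reads the same on both strands. The median promoter has 14 CpG sites, and no window over this promoter is among those measured. This promoter spans the start of the long H19 gene model. The short H19 transcript, whose first exon holds MIR675, starts nearer to MIR675, and its promoter is not printed here. The second set is the microRNA that H19 encodes, whose hairpin at chr11:1996759-1996831, minus strand, lies inside a measured window, and the seeds (bases 2 to 8) that give each mature strand its targets are in capitals. In the hairpin the capitals mark its 3 CpG sites.
MIR675 hairpin: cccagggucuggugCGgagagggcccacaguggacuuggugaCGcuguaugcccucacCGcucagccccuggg
hsa-miR-675-5p: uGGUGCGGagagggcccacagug
hsa-miR-675-3p: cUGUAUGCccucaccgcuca

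Most of the cluster was highly methylated. In the control, 203 of the 258 windows had a β-value above 80%, 14 were below 10% and 20 were intermediate. The 20 are 7.75% of the windows, beside 4.33% of all windows of the table. In all 5 libraries 13 windows stayed intermediate, 5.04% beside 2.53% of the table. CpG islands held 8 of the 20. Of the members' 34 island windows 23.5% were intermediate, beside 5.96% of all island windows, and their median β-value in the control was 41.6%, beside 15%. Away from islands, shores and shelves the share was 2.67% in 150 member windows and 3.59% in the table.

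The gene starts of the 6 members ranged from nearly unmethylated to mostly methylated. Starts are those of the gene models used here, and the short H19 transcript starts further downstream. Pooling the calls of windows within 1500 bases, CDKN1C had the lowest level, from 6.17% to 7.15% over the 5 libraries. PHLDA2 followed with 16.6% to 21.4%, KCNQ1 with 31.0% to 37.9%, KCNQ1OT1 with 43.0% to 59.0% and H19 with 52.2% to 58.4%. IGF2 was the highest at the start of its model, from 77.8% to 80.8%, although 6 windows inside the model were below 10% in the control. Other starts of IGF2 were not examined. The ranges of KCNQ1OT1 and H19 overlapped, and no other neighbours in this order did. By this pooled value H19, KCNQ1 and KCNQ1OT1 were intermediate in all 5 libraries, 3 of 6. At KCNQ1 it mixes unlike windows, in the control 7.19% at the start, 34.2% in the next and 73.8% in the one after. At PHLDA2 it pools the gene's window (23.2% to 27.0%) with a promoter window of 1.33% to 4.93%. Of 13 imprinted genes elsewhere, 11 had a measured window at their start and 3 of these, NNAT, GNAS and NDN, were intermediate in all 5 libraries.

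**Figure D1:**
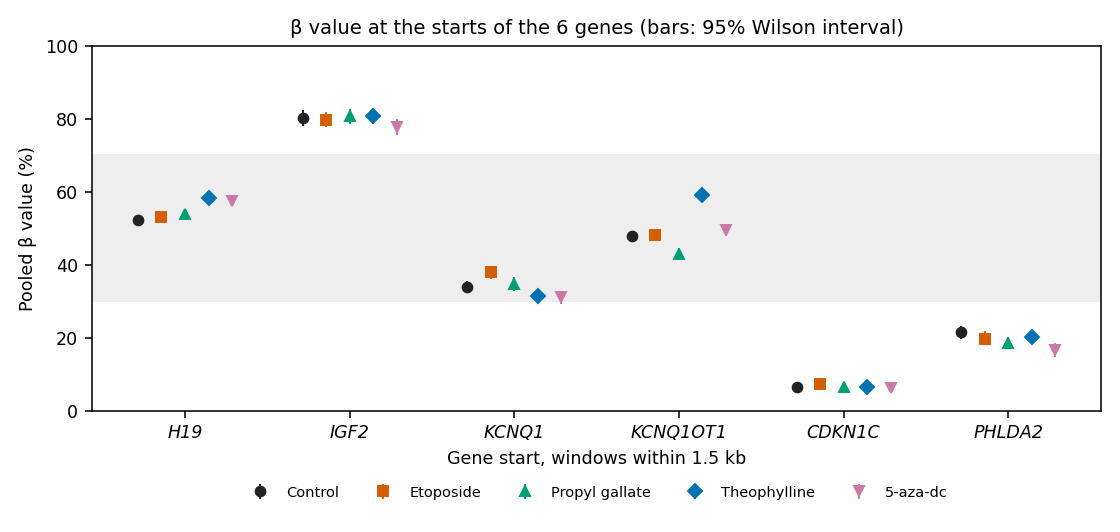
The plot gives the β-value (y axis, %) of calls pooled over the windows within 1.5 kb of the start of each gene model. Each library is 1 point, with 95% Wilson intervals as bars and the range from 30% to 70% in grey. H19, KCNQ1 and KCNQ1OT1 lie in the grey range in all 5 libraries, and theophylline stands apart at KCNQ1OT1 with 59.0%. The pooled value of KCNQ1 mixes windows from 7.19% to 73.8% in the control.

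The start of KCNQ1OT1 was intermediate in every library, and its level with theophylline lay above that of the other 4. The gene (ENSG00000269821, chr11:2608328-2699994, GRCh38, minus strand) has 3 measured windows within 1500 bases of its start. Their pooled β-value was 47.8% in the control (46.3% to 49.3%, 4368 calls), 48.1% after etoposide, 43.0% after propyl gallate, 59.0% after theophylline (57.5% to 60.6%, 3891 calls) and 49.5% after 5-aza-dc. Theophylline had the highest value and propyl gallate the lowest, and the intervals of the control, etoposide (46.4% to 49.7%) and 5-aza-dc (48.0% to 51.1%) overlapped.

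The window upstream of the start, chr11:2700001-2701000, lies in a CpG island and had 39.3% in the control, 46.3% with etoposide, 31.3% with propyl gallate, 52.9% with theophylline and 44.7% with 5-aza-dc. All 4 differences from the control were called, with propyl gallate lower and the others higher. Of all windows of the table, 6.38% were called higher with etoposide, 8.13% with theophylline and 3.55% with 5-aza-dc, and 3.71% were called lower with propyl gallate. Theophylline exceeded the control by 13.6 percentage points (adjusted p = 4.22e-14, Fisher's exact test) and propyl gallate by 21.6 (adjusted p = 5.18e-36, Fisher's exact test).

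The window that holds the start, chr11:2699001-2700000, had 57.0% in the control, 47.5% with etoposide, 52.5% with propyl gallate, 64.4% with theophylline and 49.6% with 5-aza-dc. Etoposide and 5-aza-dc were called lower than the control and theophylline higher, by 7.38 percentage points. Here the order of etoposide and the control was opposite to that in the window next to it, so the pooled value hides differences of both signs. The window downstream, chr11:2698001-2699000 in the transcribed part, had 52.0% in the control, 54.0% with etoposide, 58.2% with propyl gallate, 63.9% with theophylline and 61.8% with 5-aza-dc. Theophylline and 5-aza-dc were called higher there.

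Theophylline was the library that was called higher than the control in all 3 windows, a call made in 8.13% of the table. It was also called higher than etoposide in all 3 (9.69% of the table differed in either direction), and higher than propyl gallate (9.67%) and 5-aza-dc (17.3%) in the window of the start and the one upstream. In the window downstream its differences from propyl gallate (5.77 percentage points, adjusted p = 0.115, Fisher's exact test) and from 5-aza-dc (5-aza-dc minus theophylline, -2.15) were not called. With all calls divided by 2, to allow for calls that come in pairs, 1 of the 3 windows stayed called for theophylline against the control, the one upstream of the start. The calls of the other chemicals against the control at this start, 2 for etoposide, 1 for propyl gallate and 3 for 5-aza-dc, were all lost.

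Further from the start the DNA was mostly methylated. Of the 4 windows measured further along the KCNQ1OT1 gene, 3 lay between 85.4% and 100% and the other, chr11:2693001-2694000, between 6.04% and 15.2%. Upstream, chr11:2721001-2722000, a window outside CpG islands, had 58.9% in the control, 61.2% with etoposide, 58.9% with propyl gallate, 60.8% with theophylline and 46.6% with 5-aza-dc. Only 5-aza-dc was called there, lower by 12.3 percentage points, and it stayed called with calls divided by 2.

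**Figure D2:**
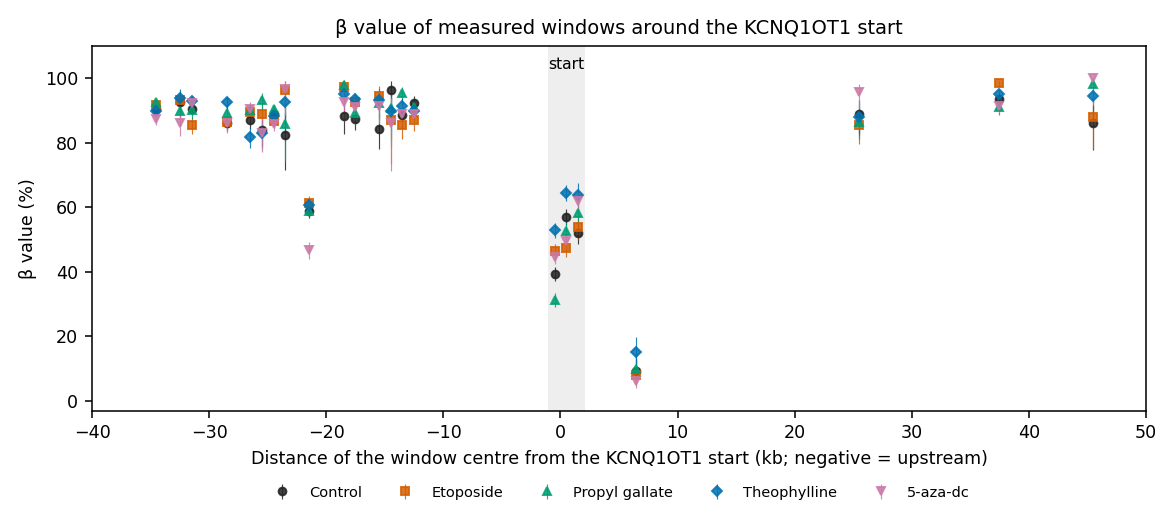
The plot shows the β-value (y axis, %) of the 22 measured windows from 40 kb upstream to 50 kb downstream of the KCNQ1OT1 start (x axis, distance of the window's centre in kb), 1 symbol per library with 95% Wilson intervals, and the 3 windows of the start in grey. The grey windows lie between 31.3% and 64.4%, with theophylline highest in each, while most windows on either side lie above 80%.

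H19 was intermediate in a part of its gene model, and the pooled level of that part was lowest in the control library. The model in the table (ENSG00000130600, chr11:1995166-2001470, minus strand) runs further upstream than the short H19 transcript, whose first exon holds MIR675, so the stretch between MIR675 and the start of the model was described after its values were seen. Its 3 windows had a pooled β-value of 52.5% in the control (51.5% to 53.6%, 8081 calls), 54.9% with etoposide, 55.7% with propyl gallate, 59.1% with theophylline and 58.2% with 5-aza-dc. The control was the lowest of the 5, and its interval ended below the start of the others.

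The difference came from 2 of the 3 windows. The window chr11:1999001-2000000, in a CpG island, had 43.9% in the control, 51.5% with etoposide, 56.8% with propyl gallate, 60.1% with theophylline and 58.7% with 5-aza-dc. All 4 chemicals were called higher than the control there, by 7.52 to 16.1 percentage points, and all 4 stayed called with calls divided by 2. Its neighbour chr11:1998001-1999000 had 59.3% in the control, 84.8% with etoposide, 78.9% with propyl gallate, 70.4% with theophylline and 70.2% with 5-aza-dc. There etoposide, propyl gallate and theophylline were called higher, and 5-aza-dc, 10.9 percentage points above the control, was not. With calls divided by 2 the call of theophylline was lost and the other pair stayed. The one nearest the start, chr11:2000001-2001000, had 57.5% in the control, 54.5% with etoposide, 52.2% with propyl gallate, 57.4% with theophylline and 56.6% with 5-aza-dc, and propyl gallate was called lower, a call that was lost with calls divided by 2. Since all 4 comparisons share the 1 control library, a value particular to that library would appear in each of them.

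The chemicals also differed among themselves in these windows, as 9.67% of the table did between propyl gallate and etoposide, 15.3% between 5-aza-dc and etoposide and 15.6% between 5-aza-dc and propyl gallate. At chr11:1998001-1999000 etoposide was called higher than theophylline and 5-aza-dc, which were 14.4 and 14.5 percentage points lower. At chr11:1999001-2000000 the order was the reverse, and propyl gallate, theophylline and 5-aza-dc were called higher than etoposide. No pair of propyl gallate, theophylline and 5-aza-dc was called in that window. At chr11:2000001-2001000 theophylline exceeded propyl gallate by 5.20 percentage points and 5-aza-dc exceeded it by 4.47, and both pairs were called (adjusted p = 2.08e-04 and 0.00183, Fisher's exact test).

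The 3 windows on the MIR675 side of the gene were more methylated, with a pooled value between 81.8% and 84.4%. The window that holds the MIR675 hairpin printed above, chr11:1996001-1997000, had 90.3% in the control, 81.2% with etoposide, 87.4% with propyl gallate, 91.9% with theophylline and 86.2% with 5-aza-dc. Etoposide was called lower than the control there, by 9.10 percentage points on the β scale.

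The 5000 bases upstream of the model's start, where the control region was looked for first, held no intermediate window. Since the model starts further upstream than the short transcript, these bases are probably not the known control region. Their levels therefore do not show whether that region is intermediate. Whether the intermediate stretch between MIR675 and the model's start belongs to it was not tested. Of the 4 windows, chr11:2004001-2005000 was nearly unmethylated, from 4.36% to 6.03%, and chr11:2005001-2006000 nearly fully methylated, from 93.8% to 96.0%. No chemical was called in either. The window chr11:2003001-2004000 had 78.6% in the control on 126 calls, 82.4% with etoposide, 88.9% with propyl gallate, 92.9% with theophylline and 89.7% with 5-aza-dc, and theophylline was called higher. In the last, chr11:2006001-2007000, etoposide (80.7%) and theophylline (82.7%) were called lower than the control (90.7%), and propyl gallate (88.1%) and 5-aza-dc (91.0%) were not. With calls divided by 2 no call was left in the 4 windows. The pooled value of 73.1% in the control and 65.3% to 75.4% after the chemicals mixes these levels and depends on how many calls each window gave.

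**Figure D3:**
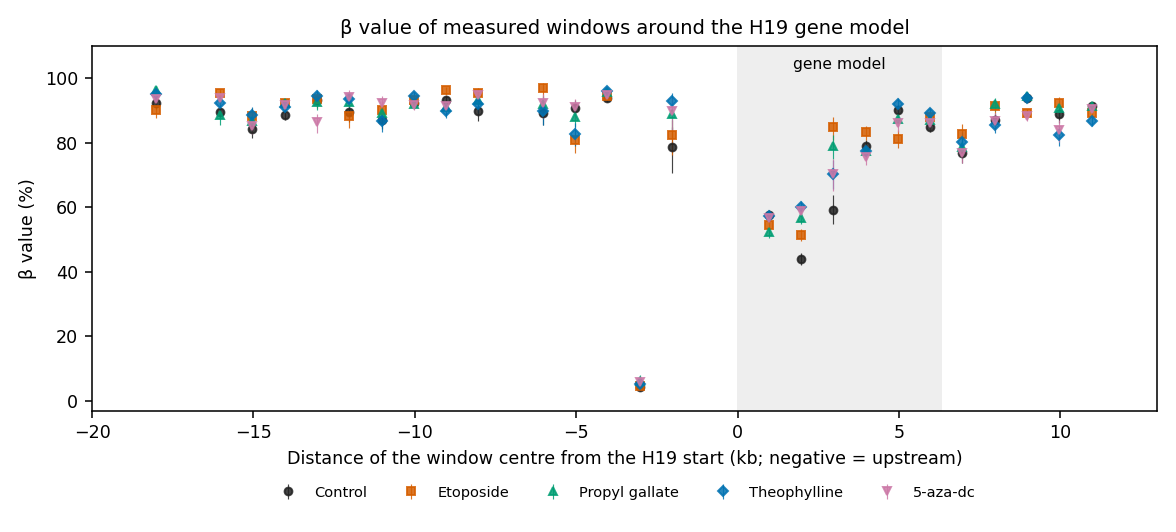
The plot shows the β-value (y axis, %) of the 26 measured windows from 20 kb upstream to 13 kb downstream of the start of the H19 gene model (x axis, distance in kb), 1 symbol per library with 95% Wilson intervals and the gene model in grey. The 3 windows nearest the start inside the model lie between 43.9% and 84.8%, the control lowest in the 2 further from the start, and a single window upstream lies near 5%.

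Further from the gene, 32 other windows of H19 had a mean β-value from 85% to 87.3%, and 26 of them were above 80% in the control. The window chr11:2030001-2031000 was an exception in level and in difference. It had 43.7% in the control on 263 calls, 67.1% with etoposide, 60.2% with propyl gallate, 71.5% with theophylline and 63.9% with 5-aza-dc. All 4 were called higher than the control, and with calls divided by 2 theophylline alone stayed called. The nearby window chr11:2036001-2037000 was intermediate in all 5 libraries, from 47.3% to 61.0%, with no call.

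The remaining calls around H19 were in methylated windows, and the widest was 13.8 percentage points. With calls divided by 2 the 32 windows kept 0 of 7 calls for etoposide, 0 of 4 for propyl gallate, 2 of 3 for theophylline and 2 of 5 for 5-aza-dc. At chr11:1990001-1991000 theophylline was lower (86.7% beside 91.5%), and at chr11:1992001-1993000 etoposide (89.2%) and 5-aza-dc (88.4%) were lower than the control (93.9%). At chr11:2014001-2015000 5-aza-dc was lower (86.3% beside 93.4%). Etoposide and propyl gallate were higher at chr11:2015001-2016000 (92.3% and 92.4% beside 88.7%), etoposide at chr11:2017001-2018000 (95.3% beside 89.6%) and at chr11:2023001-2024000 (96.3% beside 82.5% on 80 calls). Propyl gallate was higher at chr11:2019001-2020000 (96.5% beside 92.4%) and theophylline at chr11:2028001-2029000 (94.2% beside 84.1%). The window chr11:2027001-2028000, in a CpG island, was lower after etoposide (90.0%), propyl gallate (89.8%) and 5-aza-dc (84.9%) than in the control (94.6%), 5-aza-dc was lower at chr11:2026001-2027000 (87.0% beside 90.6%), and etoposide was lower at chr11:2032001-2033000 (87.3% beside 93.2%).

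IGF2 (ENSG00000167244, chr11:2129112-2158391, minus strand) showed a long unmethylated stretch inside a mostly methylated neighbourhood. Its gene model holds 19 windows, and 6 of them, all in CpG islands between chr11:2137001-2138000 and chr11:2144001-2145000 and given to the antisense gene IGF2-AS in the table, lay between 0% and 11.8% in every library. No chemical was called higher in these 6. The deepest, chr11:2139001-2140000, had 1.18% in the control on 6507 calls, 1.04% with etoposide, 1.13% with propyl gallate, 1.42% with theophylline and 1.40% with 5-aza-dc. At chr11:2144001-2145000, 5-aza-dc was called lower, 2.40% beside 4.43%. Low levels in the model were not confined to this stretch. Outside CpG islands and nearer the start, chr11:2152001-2153000 lay between 5.85% and 10.3%. Its neighbour chr11:2151001-2152000 lay between 5.33% and 13.3%, and no chemical was called against the control in either.

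On the upstream side of that stretch, toward the start of the gene, 3 windows were intermediate in the control. They had 39.1%, 58.6% and 58.2% there, at chr11:2145001-2146000, chr11:2146001-2147000 and chr11:2147001-2148000. The middle one had 72.1% with etoposide, 95.2% with propyl gallate, 57.8% with theophylline and 65.0% with 5-aza-dc. Propyl gallate was called higher there by 36.6 percentage points, the widest difference of the 258 windows against the control, on 58 calls in the control and 42 after propyl gallate. The call was lost with calls divided by 2.

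The other intermediate windows of IGF2 had no call. At chr11:2132001-2133000, annotated as a 3UTR of the read-through gene INS-IGF2, the control had 62.0% on 71 calls and the chemicals 69.4% to 81.8%. At chr11:2157001-2158000, in an intron, the 5 libraries lay between 43.1% and 47.3%. The window of the model's start, chr11:2158001-2159000, was methylated, with 96.2% in the control. It had 91.4% with etoposide, 91.8% with propyl gallate, 89.4% with theophylline and 88.3% with 5-aza-dc, and none was called. At the 3′ end, chr11:2129001-2130000 had 86.5% in the control and was called higher after etoposide (95%), propyl gallate (91.8%) and theophylline (91.2%). Inside the gene, chr11:2149001-2150000 was called higher after theophylline (91.2% beside 84.5%).

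**Figure D4:**
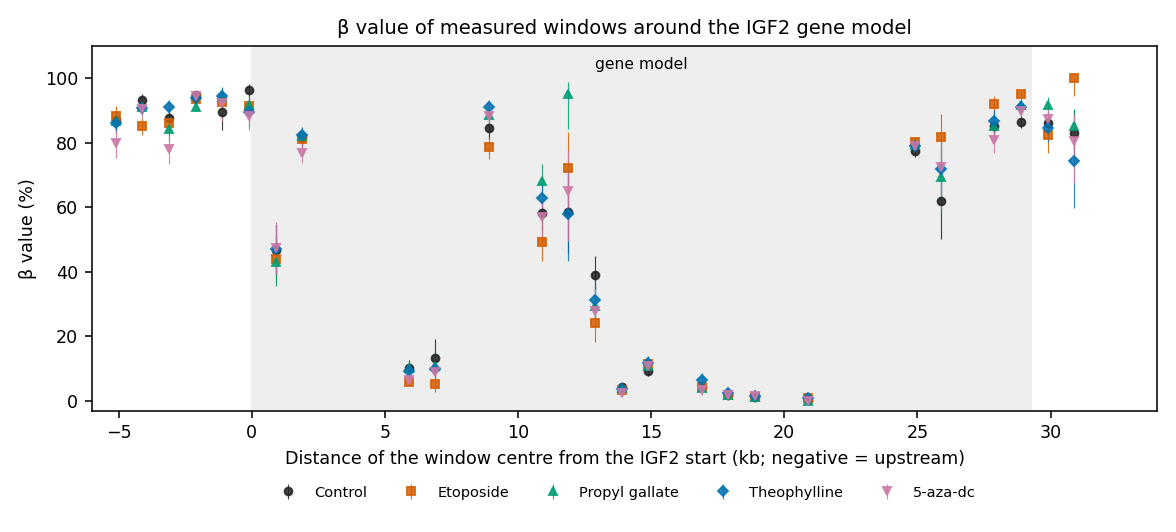
The plot shows the β-value (y axis, %) of the 26 measured windows around the IGF2 gene model, in grey, against distance from its start in kb (x axis), 1 symbol per library with 95% Wilson intervals. A run of 6 windows lies at or below 11.8% in all libraries, and propyl gallate stands apart at 95.2% in a window of few calls upstream of it. Nearer the start, chr11:2151001-2152000 and chr11:2152001-2153000 lie at or below 13.3%.

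Outside the gene, 29 of 30 windows of IGF2 were above 80% in the control. The other, chr11:2097001-2098000, lay between 15.4% and 19.6% with no call. The calls outside the gene went in both directions. Propyl gallate was lower at chr11:2081001-2082000 (81.7% beside 95.7%), where 5-aza-dc was lower too (87.7%), and at chr11:2160001-2161000 (91.2% beside 94.8%). Theophylline was higher at chr11:2086001-2087000 (92.5% beside 82.8%) and chr11:2091001-2092000 (95.9% beside 89.0%), propyl gallate at chr11:2099001-2100000 (93.8% beside 88.3%) and etoposide at chr11:2127001-2128000 (100% beside 83.1% on 71 calls). 5-aza-dc was lower at chr11:2100001-2101000 (78.4% beside 84.7%) and chr11:2109001-2110000 (81.2% beside 89.0%). Etoposide was lower at chr11:2111001-2112000 (86.8% beside 94.9%), with propyl gallate (90.1%), and at chr11:2162001-2163000, in the promoter annotation of INS, the insulin gene (85.2% beside 93.4%).

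KCNQ1, a voltage-gated potassium channel of heart and inner ear (ENSG00000053918, chr11:2444684-2849105, plus strand), had 149 windows, of which 130 were above 80% in the control. Its start lies in an island whose level rose along the gene. The window of the start, chr11:2444001-2445000, had 7.19% in the control, 15.9% with etoposide, 9.61% with propyl gallate, 11.3% with theophylline and 10.8% with 5-aza-dc. The next, chr11:2445001-2446000, had 34.2% in the control, 40.1% with etoposide, 36.3% with propyl gallate, 33.1% with theophylline and 33.3% with 5-aza-dc. Etoposide was called higher in both. The one after it, chr11:2446001-2447000, lay between 73.8% in the control and 87.8% after theophylline, and theophylline was called higher. With calls divided by 2 none of these calls was left.

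Of the 8 intermediate windows of KCNQ1 in the control, 3 are those of the KCNQ1OT1 start, and the windows chr11:2445001-2446000 and chr11:2721001-2722000 are given above. The other 3 lie further along the gene. At chr11:2791001-2792000 the control had 35.8%, etoposide 44.1%, propyl gallate 33.7%, theophylline 34.4% and 5-aza-dc 32.9%. Etoposide was called higher. In the same island, chr11:2792001-2793000 had 32.3% in the control, 34.8% with etoposide, 24.4% with propyl gallate, 34.9% with theophylline and 29.7% with 5-aza-dc, and propyl gallate was called lower. At chr11:2826001-2827000 the 5 libraries lay between 47.1% and 52.0%, with no call.

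Differences of more than 10 percentage points were also called in windows of KCNQ1 above the intermediate range. At chr11:2466001-2467000, in an intron, the control had 98.8% on 173 calls, etoposide 71.8%, propyl gallate 71.0%, theophylline 89.9% and 5-aza-dc 81.1%. All 4 were called lower than the control, and all but theophylline stayed called with calls divided by 2. At chr11:2806001-2807000 the control had 74.1%, etoposide 66.5%, propyl gallate 64.1%, theophylline 69.3% and 5-aza-dc 54.1%. Propyl gallate and 5-aza-dc were called lower. At chr11:2796001-2797000 the control had 91.5%, the other chemicals 92.0% to 93.9% and 5-aza-dc 78.3%, so that 5-aza-dc alone was called lower, by 13.2 percentage points on the β scale (adjusted p = 1.73e-23, Fisher's exact test).

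Further calls were of both signs. In the 139 windows of KCNQ1 outside both starts and the KCNQ1OT1 gene, calls divided by 2 left 5 of 16 for etoposide, 5 of 19 for propyl gallate, 3 of 17 for theophylline and 7 of 26 for 5-aza-dc. At chr11:2832001-2833000 the control had 80.3% and the chemicals 91.7% (etoposide), 92.9% (propyl gallate), 98.9% (theophylline) and 96.6% (5-aza-dc), all called higher. At chr11:2568001-2569000 the control had 79.4%, etoposide 88.7%, propyl gallate 86.4%, theophylline 91.5% and 5-aza-dc 92.3%. All but propyl gallate were called higher. Etoposide was higher at chr11:2743001-2744000 (97.7% beside 84.2%) and propyl gallate at chr11:2766001-2767000 (98.7% beside 85%). Propyl gallate was lower at chr11:2841001-2842000 (79.5% beside 91.1%) and chr11:2536001-2537000 (82.8% beside 92.1%). Theophylline was lower at chr11:2741001-2742000 (85.3% beside 94.8%) and chr11:2780001-2781000 (81.9% beside 88.3%). 5-aza-dc was higher at chr11:2812001-2813000 (88.9% beside 70.6%) and lower at chr11:2556001-2557000 (70.3% beside 92.3% on 52 calls).

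CDKN1C, which encodes the cell cycle inhibitor p57 and is read mainly from the maternal copy, was unmethylated in every library. Its gene (ENSG00000129757, chr11:2883213-2885775, minus strand) lies in an island with 3 windows and had a pooled β-value of 2.60% in the control (2.33% to 2.90%, 11885 calls), 1.88% with etoposide, 1.96% with propyl gallate, 2.54% with theophylline and 2.15% with 5-aza-dc. In the window of the start, chr11:2885001-2886000, the 5 libraries lay between 2.91% and 4.78% with no call. At chr11:2883001-2884000 the control had 7.39% and the chemicals from 1.27% to 4.38%, and 5-aza-dc was called lower. In the flank, chr11:2888001-2889000 was intermediate in all 5 libraries, from 30.9% to 36.4%, with no call. Etoposide was higher at chr11:2887001-2888000 (89.9% beside 82.2%) and 5-aza-dc lower at chr11:2889001-2890000 (82.4% beside 90.3%).

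PHLDA2, a restrainer of placental growth read from the maternal copy (ENSG00000181649, chr11:2928273-2929420, minus strand), had 1 window in its gene, chr11:2928001-2929000. It had 26.4% in the control, 27.0% with etoposide, 23.2% with propyl gallate, 26.3% with theophylline and 23.3% with 5-aza-dc, and none was called. Just upstream, chr11:2930001-2931000, in the promoter annotation, lay between 1.33% and 4.93%. Its neighbour chr11:2931001-2932000 had 32.3% in the control, 18.8% with etoposide, 35.5% with propyl gallate, 21.5% with theophylline and 14.3% with 5-aza-dc, and 5-aza-dc was called lower on 98 calls. Theophylline was higher at chr11:2925001-2926000 (97.0% beside 91.6%) and propyl gallate at chr11:2932001-2933000 (95.9% beside 89.2%). The window that would hold the start was not among those measured, for PHLDA2 as for H19.

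Over the cluster, 5-aza-dc was lower and the other chemicals slightly higher than the control, as in the whole table. The mean β-value of the 258 windows was 79.6% in the control, 80.4% with etoposide, 80.4% with propyl gallate, 80.8% with theophylline and 78.4% with 5-aza-dc. Against the control, etoposide differed by 0.831 percentage points (counting interval at 95%, 0.471 to 1.19), propyl gallate by 0.856 (0.503 to 1.21), theophylline by 1.26 (0.913 to 1.60) and 5-aza-dc by -1.22 (-1.58 to -0.863). Over all windows the differences were 0.503, 0.548, 0.964 and -1.05 percentage points in the same order. With all calls pooled in place of a mean over windows, the difference of etoposide was -0.170 and the others kept their sign.

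With etoposide 25 member windows were called higher than the control, 9.69% of the 258 beside 6.38% of the table, and 12 lower, 4.65% beside 3.74%. With propyl gallate 21 were higher, 8.14% beside 6.55%, and 13 lower, 5.04% beside 3.71%. With theophylline 27 were higher, 10.5% beside 8.13%, and 6 lower, 2.33% beside 2.86%. With 5-aza-dc 11 were higher, 4.26% beside 3.55%, and 31 lower, 12.0% beside 10.4%. With any of the 4 chemicals 100 windows were called, 38.8% beside 31.9%. Over the 10 pairs of libraries 143 were called in at least 1, 55.4% beside 47.8%, and 115 in none. Apart from the lower calls of theophylline each share lies above that of the table, and the excess was not tested. Member windows also held more calls, and a window with more calls is called at a smaller difference. The median was 612 in the control, 480 with etoposide, 539 with propyl gallate, 525 with theophylline and 499 with 5-aza-dc. Over all windows it was 499, 413, 451, 427 and 398 in the same order. How far this depth accounts for the excess was not tested. The calls rest on counting: with calls divided by 2 the counts of higher windows were 7, 4, 7 and 2 in the same order of chemicals, beside 0.791%, 0.765%, 0.993% and 0.416% of the table. Those of lower windows were 2, 4, 1 and 10, beside 0.421%, 0.425%, 0.294% and 2.32%. As shares of the 258 windows these 8 counts run from 0.388% to 3.88%. With calls divided by 10 no member was called, nor more than 0.00139% of the table in either direction.

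**Figure D5:**
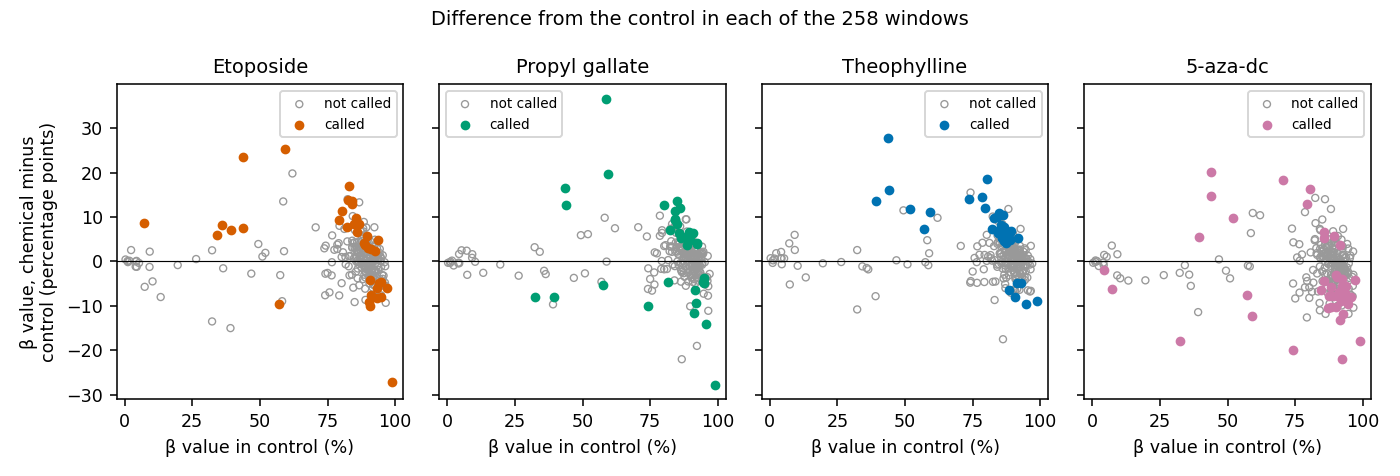
Each panel plots, for 1 chemical, the difference in β-value from the control (y axis, percentage points) against the β-value in the control (x axis, %) for the 258 windows, with called windows filled. Most windows lie above 80% in the control within a narrow band, 5-aza-dc has more called windows below 0 (31) than above (11), and the widest difference is 36.6 for propyl gallate.

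The share of windows called is given next by the level in the control. Of the 20 member windows that were intermediate in the control, 7 were called with etoposide (35%, beside 14.2% of the 12484 such windows of the table), 7 with propyl gallate (35% beside 14.4%), 6 with theophylline (30% beside 14.9%) and 7 with 5-aza-dc (35% beside 20.1%). Among the 203 above 80% in the control the shares were 13.8%, 12.8%, 11.8% and 14.8%, beside 10.1%, 10.3%, 11.1% and 14.0% of such windows of the table. The spread was wide in these windows too: the gap between the highest and the lowest library had a median of 11.6 percentage points in 12 intermediate member windows with at least 300 calls in each library, beside 9.34 in 6129 such windows of the table. In windows with a mean over 70% it was 6.13 in 135 members and 5.12 in 123781 windows. How far calls that go together within reads, or the depth of the windows, account for this was not tested.

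After 5-aza-dc both classes had a median difference below 0. In the 203 methylated windows 25 were called lower (12.3%, beside 10.5% of such windows of the table) and 5 higher (2.46% beside 3.46%). Their mean difference was -1.46 percentage points and the median -1.15, beside -1.26 and -0.903 in the table. In the 20 intermediate windows 3 were called lower (15% beside 15.2%) and 4 higher (20% beside 4.86%), and 12 lay below the control and 8 above it. Their mean difference was 0.467 and their median -1.01, beside -1.07 and -1.45 in the 12484 of the table, and the difference between the classes was not tested. The 20 were chosen by their level in the control, the library they are compared with, and 3 of the 4 higher ones lie in the starts of H19 and KCNQ1OT1 described above.

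The neighbouring genes of the 11p15 domain that are no members, among them ASCL2, CD81, TSPAN32, SLC22A18 and NAP1L4, had 220 windows. Of these, 9.09% were called higher and 4.09% lower after etoposide (6.38% and 3.74% of the table), 8.18% and 3.18% after propyl gallate (6.55% and 3.71%), 9.09% and 3.64% after theophylline (8.13% and 2.86%), and 2.73% and 12.3% after 5-aza-dc (3.55% and 10.4%). In the control 14 were intermediate. Among other imprinted loci, the windows named after DLK1 and MEG3 held 7 intermediate of 57 in the control, those of SNRPN, NDN and MAGEL2 9 of 42, and those of PEG3 and ZIM2 1 of 16. After theophylline the mean difference was 3.23 percentage points at SNRPN, NDN and MAGEL2, 1.52 at DLK1 and MEG3 and 0.365 at PEG3 and ZIM2, beside 1.26 in the 258 windows.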

How the data were processed

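RRBS libraries of 5 conditions, 1 each, were examined. The authors trimmed paired-end reads with Trim Galore 0.5.0, aligned them with Bismark 0.20.0, tiled CpG calls into windows of 1000 bases (methylKit 1.10.0), scaled coverage between libraries, filtered the windows on coverage and united the libraries; the submitters' processing notes name build hg38. The deposited control values are unscaled counts of calls. For the other libraries the deposited calls are a score, that is, counts times a factor, rounded. The deposited β-value is a fraction computed from those calls, and the 5 single-library tables hold the same β-values. Gene starts or ends lay within 1000 bases of GRCh38 RefSeq positions for 97.4% of 32903 genes, so coordinates are GRCh38.

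Factors (1.18 for etoposide, 1.09 propyl gallate, 1.15 theophylline, 1.21 5-aza-dc) were found from whole numbers absent among low coverages. Calls before scaling were recovered, returned at least 99.81% of the deposited coverages, and gave the β-values and tests here; the planned test on deposited counts became an alternative. The median window had 398 to 499 calls, which limits its precision. A two-sided Fisher's exact test, adjusted by the Benjamini-Hochberg method over all 288391 windows, was tested on simulated data and then run. The simulated calls were independent of each other, so the simulation does not cover calls that go together within reads. Wilson intervals, and the normal approximations for mean differences, were at 95%.

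The members, gene lists and settings were chosen with earlier results of these data known. Windows named are those of the H19 upstream and KCNQ1OT1 start regions, those holding a member's start, called windows of H19, IGF2, CDKN1C and PHLDA2, intermediate windows of KCNQ1, and for each chemical the 5 largest called rises and falls. Others were chosen after their values were seen: those inside the H19 model, uncalled intermediate windows of the other genes, and the window upstream of PHLDA2. The low windows chr11:2693001-2694000, chr11:2097001-2098000, chr11:2151001-2152000 and chr11:2152001-2153000 were also chosen in this way. Alternatives were deposited calls, at least 30 calls, pooling, medians, other window rules, other thresholds, calls divided by 2, another reference and, added after seeing the data, calls divided by 10 and the stretch between MIR675 and the H19 model start. Python 3.11.15, numpy 2.4.6, pandas 2.3.3, SciPy 1.17.1, numba 0.67.0 and matplotlib 3.10.9 were used.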

Additional observations from a re-analysis of the deposited data

How the results depend on the processing

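No paired analysis was possible because each condition has 1 library. No replicate exists to leave out, and 5 of 258 windows had under 30 calls in a library. The cause of the following changes was not tested unless the setting itself removes calls.

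The mean difference of the 258 windows changed sign for etoposide with all calls pooled (-0.170 percentage points). That setting gave 0.427 for propyl gallate and -2.60 for 5-aza-dc. By symbol alone propyl gallate had 0.248, and the median over windows for theophylline was 0.755. The other 23 values of the mean difference stayed within the counting interval of the reported one.

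Counts of windows called are given here as higher and lower in the order etoposide, propyl gallate, theophylline and 5-aza-dc. With calls divided by 2 they were 7 and 2, 4 and 4, 7 and 1, 2 and 10 (0.388% to 3.88% of the 258, beside 0.294% to 2.32% of the table), and with calls divided by 10 they were 0 and 0 for each chemical, a setting that called almost nothing in the table. With a difference of at least 10 percentage points they were 7 and 1, 8 and 4, 12 and 0, 5 and 10 (0% to 4.65%, beside 0.679% to 2.76%), and at 25 points 1 and 1, 1 and 1, 1 and 0, 0 and 0 (0% to 0.388%, beside 0.0697% to 0.236%). An adjusted p under 0.05 moved higher counts to 44 (etoposide, 17.1% beside 11.2%), 37 (propyl gallate, 14.3% beside 11.5%) and 20 (5-aza-dc, 7.75% beside 6.61%), and lower counts to 25 (etoposide, 9.69% beside 7.08%), 13 (theophylline, 5.04% beside 5.53%) and 51 (5-aza-dc, 19.8% beside 16.3%). Against the other chemicals pooled, lower counts were 21 for etoposide (8.14% beside 4.35%) and 50 for 5-aza-dc (19.4% beside 16.8%), and the higher count of 5-aza-dc was 5 (1.94% beside 2.41%).

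For the H19 upstream region, in the order control, etoposide, propyl gallate, theophylline and 5-aza-dc, 3000 bases in place of 5000 gave 14.4%, 18.9%, 23.4%, 29.8% and 16.8%, since the deep methylated windows drop out. The stretch between MIR675 and the model start gave 52.5%, 54.9%, 55.7%, 59.1% and 58.2%. The mean over windows gave 66.9% (control), 69.6% (propyl gallate), 69.2% (theophylline) and 70.3% (5-aza-dc). For the KCNQ1OT1 start, the window of the start alone gave 57.0% (control), 52.5% (propyl gallate) and 64.4% (theophylline), and the mean over windows 49.4% (control), 47.3% (propyl gallate) and 52.0% (5-aza-dc). Under both of these settings for the KCNQ1OT1 start theophylline was the highest of the 5 libraries.

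The share of intermediate windows was 14.7% with limits of 20% and 80%, beside 9.58% of the table. Of 121 differences examined at single windows, 55 were called in the main setting. Of these 55, 32 lost their call with calls divided by 2 and all 55 with calls divided by 10. Dividing the calls left each difference as it was, so its sign could not change. With deposited calls, which are the recovered calls scaled and rounded, 3 differences gained a call and no called difference changed sign.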
